A study of Mus musculus with 10 samples.

Results

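The genes that license DNA replication origins, fire them and run the replication fork were followed in mouse liver and in liver tumors driven by c-MYC. The 45 genes were chosen by name, and all 45 were found among the 16697 genes of the expression table. They were sorted by role into the MCM2-7 helicase (6 genes), the origin recognition complex (6), licensing factors (3), origin firing factors (7), the sliding clamp and its loader (6), replication protein A (3), primase and polymerase alpha (4), polymerases delta and epsilon (4), Okazaki fragment and topology enzymes (4) and fork protection factors (2). All 45 passed the filter on low values, which asks for 1 FPKM or more in 3 libraries or more. Of these, 11 reached 1 FPKM in fewer than 3 NL libraries and passed only with tumor libraries, and 8 of the 11 (Cdc6, Cdc7, Clspn, Fen1, Gins2, Gins3, Orc1 and Pole2) were under 1 FPKM in every NL library. FPKM are reads scaled to gene length and library size.

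Expression was measured by RNA-Seq in normal liver (NL, n = 4), in tumors induced by c-MYC with the empty vector pT3 (c-MYC, n = 3) and in tumors induced by c-MYC with FOXO1AAA, a FOXO1 transcription factor that AKT can no longer switch off (c-MYC/FOXO1AAA, n = 3). NL came from wild-type mice. The plasmids were delivered by hydrodynamic tail vein injection, a rapid high-volume injection after which hepatocytes take up the DNA, and the transgenes ran from the EF1α promoter. The labels give strain C57BL/6 and genotype WT to every sample, whereas the RNA extraction text in the labels names FVB and the methods of the study name FVB/N for the normal livers. The labels and methods name c-MYC/pT3 for the control tumors, while a design legend of the study adds MCL1 to their plasmids. The list of injected plasmids in the study names no MCL1 for either tumor group. Only were the legend right could the effects of MCL1 and FOXO1AAA not be told apart in the comparison of the tumors. Age is not given in the labels. Nothing in the labels ties samples to separate animals by name, so p-values measure the spread between these samples.

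DNA is copied once per cell cycle from many origins. In G1 the origin recognition complex, CDC6 and CDT1 load the MCM2-7 ring onto DNA, and geminin blocks CDT1 afterwards so that no origin is licensed again. In S phase the kinase CDC7, CDC45 and the GINS complex turn the ring into an active helicase, polymerase alpha with primase lays down primers, and polymerases epsilon and delta extend them on the sliding clamp PCNA. Most hepatocytes of adult liver are quiescent, and many replication genes are known targets of E2F factors.

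The libraries held 12.82 to 20.33 M (M, mega) reads in listed genes. Foxo1 lay at 6.67 to 7.86 FPKM in NL, 5.16 to 6.45 in c-MYC and 70.1 to 95.6 in c-MYC/FOXO1AAA. The summed level of 8 hepatocyte markers was 81368 to 90907 FPKM in NL, 3219 to 5067 in c-MYC and 870 to 1558 in c-MYC/FOXO1AAA. Between the tumor groups, Ttr, Apoa1, Apob, Serpina1e and Cps1 fell with FOXO1AAA without overlap of libraries, and Alb overlapped. Cyp2e1 and Pck1 went against the sum, also without overlap. The mean of Cyp2e1 went from 13.3 to 63.5 FPKM and that of Pck1 from 0.939 to 7.97. These are bulk samples, in which fewer cells of a type and less RNA per cell cannot be told apart. The NL libraries were not alike. The median of 6 oncofetal tumor markers, as a share of their c-MYC mean, was 7.1% in NL 1, 3% in NL 3, 1.48% in NL 4 and 0.423% in NL 2. Among them, Gpc3 was no higher in c-MYC (mean 0.897 FPKM) than in NL (0.98) and does not set them apart. Results against NL are therefore also given with NL 2 as the only NL library.

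Promoter sequence was examined for 36 of the 45 genes, those with an entry in the RefSeq promoter windows (GRCm38.p6, 250 bases before to 50 after the start). Of these 36 genes, 15 (41.7%) held an E2F word, against 4.57% of the 10145 tested genes with a window. Counted by window, 15 of their 45 windows (33.3%) held one, against 2.26% of all 32851 windows. The E2F words searched were TTTCCCGC, TTTCGCGC, TTTGCCGC and TTTGGCGC on both strands. The CCAAT word was found in 63.9% of the replication genes and 42.9% of tested genes, TTTGAA (the core of the CHR element of cell cycle genes) in 19.4% and 14.7%, the E-box CACGTG in 16.7% and 11.8%, and the FOXO word TGTTTAC in 5.56% and 3.33%. The FOXO word was in the windows of 2 genes, Mcm7 and Cdc45. The upstream stretches below belong to the genes with the highest and the lowest log2 fold change in c-MYC tumors (Cdc6, which rose, and Mcm10, which fell) and to those that moved most when FOXO1AAA was added (Dna2, Rfc3, Gins3 and Pola1). They are given 5′ to 3′ on the strand of the gene, from RefSeq, with the words above in capitals, and bases inside annotated exons were left out. They are Cdc6 at chr11:98908001-98908150 (plus strand), Mcm10 at chr2:5012792-5012941 (minus strand), Dna2 at chr10:62946876-62947025 (plus strand), Rfc3 at chr5:151651243-151651392 (minus strand), Gins3 at chr8:95633309-95633452 (plus strand) and Pola1 at chrX:93632156-93632305 (minus strand).
Cdc6: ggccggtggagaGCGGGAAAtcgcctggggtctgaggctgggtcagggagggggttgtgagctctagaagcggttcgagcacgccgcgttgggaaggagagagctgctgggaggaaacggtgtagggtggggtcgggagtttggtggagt
Mcm10: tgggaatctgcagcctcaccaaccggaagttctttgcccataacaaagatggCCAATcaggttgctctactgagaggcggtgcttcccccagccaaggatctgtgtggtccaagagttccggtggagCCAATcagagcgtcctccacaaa
Dna2: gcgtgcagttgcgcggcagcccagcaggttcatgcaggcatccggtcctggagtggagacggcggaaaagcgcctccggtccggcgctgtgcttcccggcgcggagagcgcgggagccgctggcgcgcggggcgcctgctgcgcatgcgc
Rfc3: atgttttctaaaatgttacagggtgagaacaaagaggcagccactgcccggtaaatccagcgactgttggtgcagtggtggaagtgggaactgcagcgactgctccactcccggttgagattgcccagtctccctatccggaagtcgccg
Gins3: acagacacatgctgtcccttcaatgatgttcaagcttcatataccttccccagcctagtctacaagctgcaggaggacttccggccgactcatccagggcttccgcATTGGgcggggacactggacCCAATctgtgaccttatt
Pola1: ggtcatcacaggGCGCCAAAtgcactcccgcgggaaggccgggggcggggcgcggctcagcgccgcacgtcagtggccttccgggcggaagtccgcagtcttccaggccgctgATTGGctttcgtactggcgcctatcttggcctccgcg
The Cdc6 stretch holds an E2F word and the Pola1 stretch an E2F word with a CCAAT box. The Cdc6 stretch lies before a RefSeq start but inside the gene as annotated in GENCODE M21 (chr11:98907801-98923940), outside its exons. The Mcm10 and Gins3 stretches hold CCAAT boxes. None of the 5 kinds of word was found anywhere in the Dna2 window. The E2F words of Rfc3 and Gins3 lie in their windows nearer to the start than the printed bases. A match of letters is a description and not a site of binding.

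The first comparison asked how replication genes differ between c-MYC tumors and normal liver. Almost the whole replication machinery was higher in c-MYC tumors. Of the 45 genes, 41 rose and 1, Mcm10, fell, where 24.5% of all 14017 tested genes were called higher and 23.6% lower. The median log2 fold change of the 45 genes was 2.81, against 0.08 for all tested genes, a distance of 2.72. Of the 34 genes that reached 1 FPKM in 3 or more NL libraries, 31 rose and Mcm10 fell. After each library was scaled to the same FPKM total, 44 genes rose and Mcm10 fell, where 50.4% and 13.5% of all tested genes were called. Calls are those of limma treat, a 2-sided test for a change above 1.5-fold, with a Benjamini-Hochberg adjusted p under 0.05 over all tested genes. The NL and c-MYC libraries did not overlap for any of the 45 genes, with 44 higher and 1 lower in c-MYC, where 39% and 34.9% of all tested genes were so. Log2 fold changes carry the prior count of the deposited values, which shrinks changes of genes with few reads. They are differences of mean logs, and for low genes with uneven NL libraries they can still exceed the ratio of mean FPKM. For Cdc6 that ratio was 25.4, below what its log2 fold change of 5.22 gives. With NL 2 as the only NL library, 37 genes were called higher and Mcm10 lower, where 22.5% and 18.5% of all tested genes were called. The spread then comes from the tumor groups alone, and NL 2 is assumed to vary like them.

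**Figure D1:**
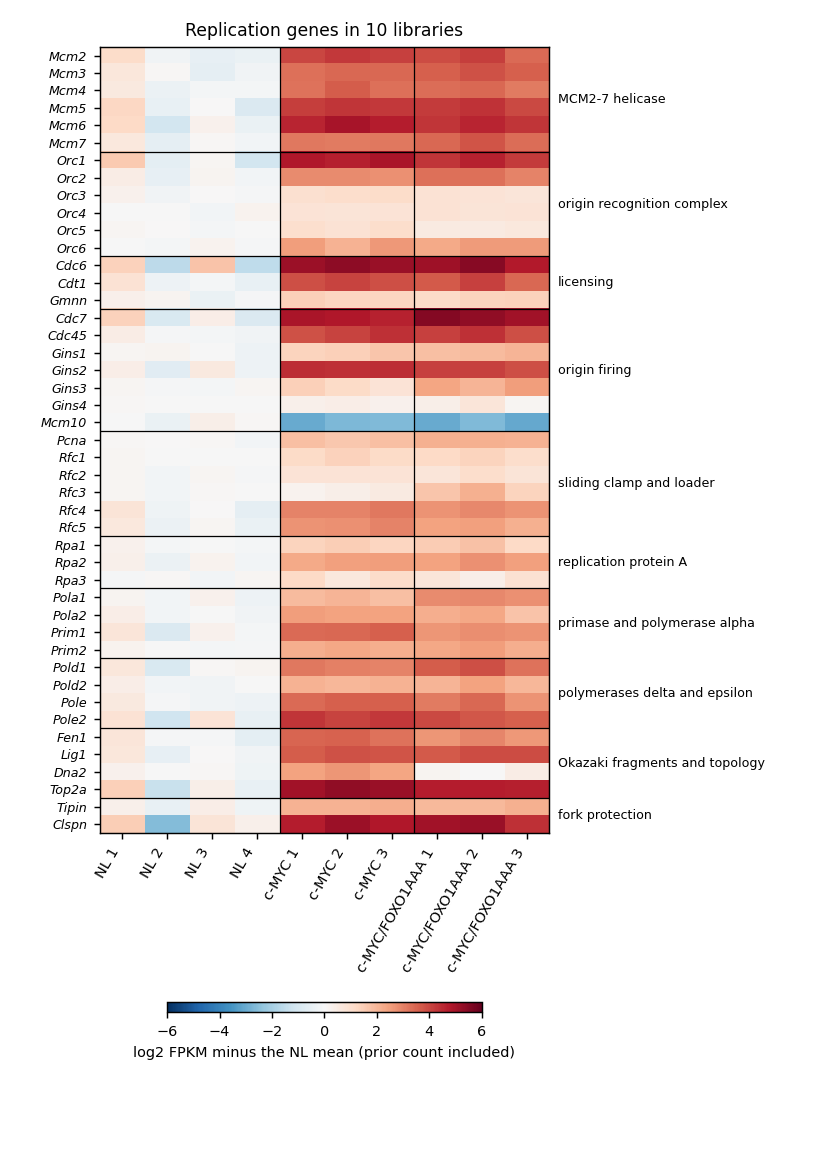
Heat map of the 45 replication genes (rows, by role) in the 10 libraries (columns); color gives the log2 FPKM minus the NL mean of the gene. The tumor columns are red for every gene but Mcm10, which is blue, and Dna2 is near the NL level in the 3 c-MYC/FOXO1AAA libraries.

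The MCM2-7 genes encode the 6 subunits of the replicative helicase, and all 6 rose, by log2 fold changes of 3.15 to 4.76. Mcm6 changed most of them. It stood at 6.72, 1.35, 3.48 and 2.22 FPKM in the NL libraries, at 70.3, 91.7 and 77.7 in c-MYC and at 56.8, 69.9 and 57.5 in c-MYC/FOXO1AAA. All tumor libraries were far above all NL libraries, and NL 1 was the highest of the NL libraries. Mcm6 rose by 4.76 on the log2 scale (limma adjusted p 7.25e-06, SE 0.42). Mcm7 changed least of the 6. Its levels were 40.7, 17.8, 27.6 and 23.3 FPKM in NL, 233.7, 231.2 and 233.2 in c-MYC, and 286.7, 354.8 and 265.9 in c-MYC/FOXO1AAA. The 3 c-MYC libraries were nearly equal, and the log2 fold change was 3.15 (limma adjusted p 2.35e-06, SE 0.23). Mcm7 shares exon bases with genes on the opposite strand, and whether counting used strand is not stated. Mcm5 rose from 2.2 FPKM ± 1.57 (SD, n = 4) to 35.7 ± 1.3 (SD, n = 3), and its NL mean was 1.44 without NL 1.

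The origin recognition complex, which marks origins, moved unevenly. All 6 subunits passed the test, Orc4 only narrowly. Orc1, the subunit whose level is known to follow the cell cycle, had a far larger change than Orc3, Orc4 and Orc5. Orc1 was near the limit of detection in normal liver. Its reads were 15, 2, 4 and 1 in NL, 253, 236 and 271 in c-MYC, and 233, 353 and 175 in c-MYC/FOXO1AAA. In FPKM this was 0.451, 0.0704, 0.136 and 0.037 in NL, 4.57, 4.16 and 4.9 in c-MYC, and 3.14, 3.92 and 2.96 in c-MYC/FOXO1AAA. The groups lay far apart, and 3 reads in NL amount to 0.0901 to 0.111 FPKM of Orc1, so that the level in NL 2 and NL 4 was below what 3 reads give. Orc1 rose by 4.80 on the log2 scale (limma adjusted p 2.35e-05, SE 0.52), and without NL 1, which moved the NL mean from 0.174 to 0.0811 FPKM, it was 5.33. Orc4 changed least. It stood at 49.5, 50.4, 45.5 and 58.5 FPKM in NL, 90.8, 86.7 and 89.1 in c-MYC, and 91.7, 86.2 and 90.3 in c-MYC/FOXO1AAA. The tumor libraries agreed closely and lay above all NL libraries, with a change of 0.80 on the log2 scale (limma adjusted p 0.0451, SE 0.10). The Orc4 call held under 7 of 20 alternatives. It was lost when NL 1, NL 2, NL 3 or any c-MYC library was left out (adjusted p 0.0579 to 0.116), and also with log2(FPKM + 1), no filter, the same median, a 2-fold threshold, trend and robust estimation off, only the 2 groups and NL 2 alone. Orc2 (2.81) and Orc6 (2.40) lay between, and Orc3 (1.04) and Orc5 (0.97) near Orc4 on the log2 fold change scale.

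The licensing factors all rose. Cdc6, the ATPase that helps to load the helicase, had the highest log2 fold change of the 45 genes on the deposited scale, close to that of Top2a (5.18). This order rests on few reads, and with log2(FPKM + 1) Top2a led with 4.38, where Cdc6 had 2.38. Its reads were 18, 1, 20 and 1 in NL, 423, 520 and 435 in c-MYC, and 562, 864 and 356 in c-MYC/FOXO1AAA, or 0.353, 0.023, 0.444 and 0.0242 FPKM in NL, 5, 5.98 and 5.13 in c-MYC, and 4.94, 6.27 and 3.93 in c-MYC/FOXO1AAA. NL 2 and NL 4 held a single read each, and every tumor library held at least 356. Cdc6 rose by 5.22 on the log2 scale (limma adjusted p 0.000296, SE 0.78). Without NL 3 the NL mean fell from 0.211 to 0.133 FPKM, and the log2 fold change was 5.79. Cdt1, the other loading factor, rose by 3.95 (limma adjusted p 1.93e-06, SE 0.28). Gmnn encodes geminin, the inhibitor of CDT1, and rose far less. Its levels were 14.6, 12.9, 8.72 and 11.2 FPKM in NL, 31.1, 28.5 and 28.9 in c-MYC, and 26.2, 30 and 30.7 in c-MYC/FOXO1AAA. The tumor groups overlapped each other and lay above NL, with a change of 1.33 on the log2 scale in c-MYC versus NL (limma adjusted p 0.00102, SE 0.16).

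The 7 origin firing genes were the most divided group, with 4 higher, 1 lower and 2 not called. Cdc7, the kinase that phosphorylates the MCM ring, stood at 0.537, 0.0741, 0.25 and 0.0778 FPKM in NL, at 6.41, 6.08 and 5.3 in c-MYC and at 10.1, 8.76 and 7.28 in c-MYC/FOXO1AAA. NL 2 and NL 4 were at or below the 0.111 and 0.117 FPKM that 3 reads give there. Cdc7 rose by 4.76 on the log2 scale (limma adjusted p 1.93e-05, SE 0.49), and 5.23 without NL 1, whose removal moved the NL mean from 0.235 to 0.134 FPKM. Cdc45, a subunit of the active helicase, rose by 4.08 (limma adjusted p 9.58e-08, SE 0.21). The subunits of the GINS complex act together in equal numbers, but their genes did not move alike. Gins2 rose by 4.41 and Gins1 by 1.47, whereas Gins3 (1.13, limma adjusted p 0.0528) and Gins4 (0.33, limma adjusted p 1) did not pass the test. Gins2 shares 2758 exon bases with Gse1 on the opposite strand.

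Mcm10, a scaffold protein that works with CDC45 and GINS when origins fire, went the other way. Mcm10 (chromosome 2, 4989714 to 5012791, minus strand, GRCm38) stood at 49.4, 38.6, 65.2 and 54.4 FPKM in NL, at 6.19, 7.96 and 8.14 in c-MYC and at 6.29, 8.03 and 6.03 in c-MYC/FOXO1AAA. The reads behind these levels were 1771 to 3099 in NL and 553 to 1168 in the tumors. Every NL library lay above every tumor library. Mcm10 had a log2 fold change of -2.79 in c-MYC versus NL (limma adjusted p 1.17e-06, SE 0.18), and it stayed called lower under all 20 alternatives, between -2.92 and -1.86. Mcm10 shares no exon bases with another annotated gene. Which transcripts the reads of normal liver come from was not tested.

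**Figure D2:**
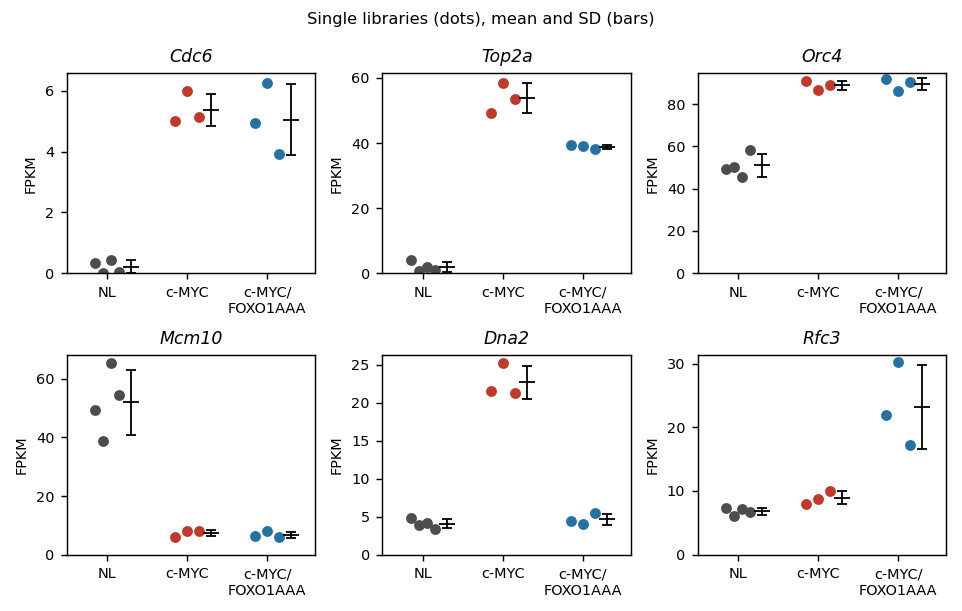
FPKM of 6 replication genes in single libraries (dots; NL gray, c-MYC red, c-MYC/FOXO1AAA blue) with the group mean and SD (bars). Cdc6, Top2a and Orc4 are higher in both tumor groups, Mcm10 falls from 38.6 to 65.2 FPKM in NL to 6.03 to 8.14 in tumors, Dna2 is high in c-MYC alone, and Rfc3 is high in c-MYC/FOXO1AAA alone.

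Of the sliding clamp and its loader, 5 of 6 genes rose. Pcna, the clamp that holds polymerases on DNA, rose from 36.7 FPKM ± 2.44 (SD, n = 4) to 123.5 ± 9.94 (SD, n = 3), a change of 1.75 on the log2 scale (limma adjusted p 7.28e-07, SE 0.09). Pcna has processed copies in the annotation, and reads shared with them cannot be placed. Rfc4, a small subunit of the clamp loader, stood at 5.31, 2.59, 3.09 and 2.09 FPKM in NL, at 24.9, 24.6 and 28.4 in c-MYC and at 20.4, 23.2 and 20.4 in c-MYC/FOXO1AAA. It had the largest change of the group, with a change of 3.04 on the log2 scale (limma adjusted p 5.93e-06, SE 0.25). Rfc5 rose by 2.81, Rfc1, the large subunit, by 1.23 and Rfc2 by 0.83 (limma adjusted p 0.0456). Rfc2 was no longer called without NL 2, without NL 4 or without any single c-MYC library (adjusted p 0.0712 to 0.111), and its call held under 9 of 20 alternatives. Rfc3, another small subunit, did not pass the test. Its levels were 7.29, 6.12, 7.23 and 6.68 FPKM in NL and 7.99, 8.75 and 10 in c-MYC, a change of 0.38 on the log2 scale (95% interval -0.01 to 0.76).

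Replication protein A coats single-stranded DNA at the fork, and its 3 genes rose. Rpa2, the middle subunit, stood at 6.84, 4.39, 6.33 and 4.92 FPKM in NL, at 26.6, 30.7 and 31.4 in c-MYC and at 30, 36.9 and 30.4 in c-MYC/FOXO1AAA. Its log2 fold change in c-MYC versus NL was 2.40 (limma adjusted p 1.88e-06, SE 0.16). Rpa1 rose by 1.37. Rpa3, the smallest subunit, had the smallest change. It stood at 21.8, 23.9, 20.3 and 24.8 FPKM in NL, at 51.3, 34.9 and 48.8 in c-MYC and at 37, 29.2 and 42.7 in c-MYC/FOXO1AAA. The c-MYC libraries of Rpa3 varied more among themselves than those of Rpa2 in relative terms, and the log2 fold change was 0.97 (limma adjusted p 0.0418, SE 0.16). That call was lost when NL 1, NL 2, NL 3, c-MYC 1 or c-MYC 3 was left out (adjusted p 0.0517 to 0.149), and it held under 10 of 20 alternatives.

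Primase and polymerase alpha make the primers of both strands, and all 4 genes rose. Prim1, the catalytic primase subunit, stood at 4, 1.27, 2.91 and 2.25 FPKM in NL, at 26.5, 27 and 30 in c-MYC and at 15.4, 17.1 and 16.2 in c-MYC/FOXO1AAA. The 3 groups did not overlap, and the log2 fold change in c-MYC versus NL was 3.48 (limma adjusted p 6.35e-06, SE 0.29). Pola1, the catalytic subunit of polymerase alpha, changed least. It stood at 1.1, 0.873, 1.15 and 0.792 FPKM in NL, at 3.7, 4.03 and 3.47 in c-MYC and at 7.02, 7.17 and 6.61 in c-MYC/FOXO1AAA. Its log2 fold change in c-MYC versus NL was 1.92 (limma adjusted p 3.79e-05, SE 0.18). Pola2 rose by 2.45 and Prim2 by 2.23.

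The leading and lagging strand polymerases rose as well. Pole2, the accessory subunit of polymerase epsilon, stood at 0.743, 0.124, 0.72 and 0.261 FPKM in NL, at 8.82, 7.5 and 8.49 in c-MYC and at 6.97, 5.99 and 5.26 in c-MYC/FOXO1AAA. The reads in NL were 14, 2, 12 and 4. Pole2 rose by 4.21 on the log2 scale (limma adjusted p 2.52e-05, SE 0.45), and the catalytic subunit Pole by 3.52. Pold2, the accessory subunit of polymerase delta, changed less. It stood at 109.6, 73.2, 72.2 and 80.8 FPKM in NL, at 356.2, 332 and 356.7 in c-MYC and at 337.9, 438.6 and 325 in c-MYC/FOXO1AAA. Pold2 rose by 2.07 on the log2 scale (limma adjusted p 7.25e-06, SE 0.16), against 3.05 for the catalytic subunit Pold1.

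Among the enzymes that mature Okazaki fragments and untangle DNA, Top2a, the topoisomerase that separates sister chromatids, had the largest change. It stood at 3.99, 0.569, 1.86 and 1.07 FPKM in NL, at 49.3, 58.5 and 53.6 in c-MYC and at 39.4, 39 and 38.1 in c-MYC/FOXO1AAA. Its log2 fold change in c-MYC versus NL was 5.18 (limma adjusted p 1.24e-05, SE 0.50), and 5.65 without NL 1, which moved the NL mean from 1.87 to 1.17 FPKM. Lig1, the ligase that seals Okazaki fragments, rose by 3.74 and the flap endonuclease gene Fen1 by 3.43. Fen1 rests on few reads, from 1 to 5 in NL and 59 to 74 in c-MYC, and shares 1909 exon bases with the antisense gene Gm10143. Dna2, a nuclease and helicase that trims long flaps, rose least of the 4. It stood at 4.79, 3.92, 4.18 and 3.33 FPKM in NL and at 21.6, 25.2 and 21.2 in c-MYC, a change of 2.48 on the log2 scale (limma adjusted p 9.95e-07, SE 0.15).

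Both fork protection genes rose. Clspn, the mediator of the replication checkpoint, stood at 0.378, 0, 0.224 and 0.155 FPKM in NL, at 3.73, 4.93 and 3.99 in c-MYC and at 4.61, 5.1 and 2.96 in c-MYC/FOXO1AAA. NL 2 held 0 reads of Clspn, which allows a level of up to 0.0633 FPKM at its depth, counting error only. Clspn rose by 4.88 on the log2 scale (limma adjusted p 0.000547, SE 0.79). Tipin, which travels with the fork, stood at 5.21, 3.11, 5.51 and 3.57 FPKM in NL, at 18.1, 18.1 and 19.6 in c-MYC and at 16.7, 16.5 and 19 in c-MYC/FOXO1AAA. Tipin rose by 2.12 on the log2 scale (limma adjusted p 2.15e-05, SE 0.19).

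**Figure D3:**
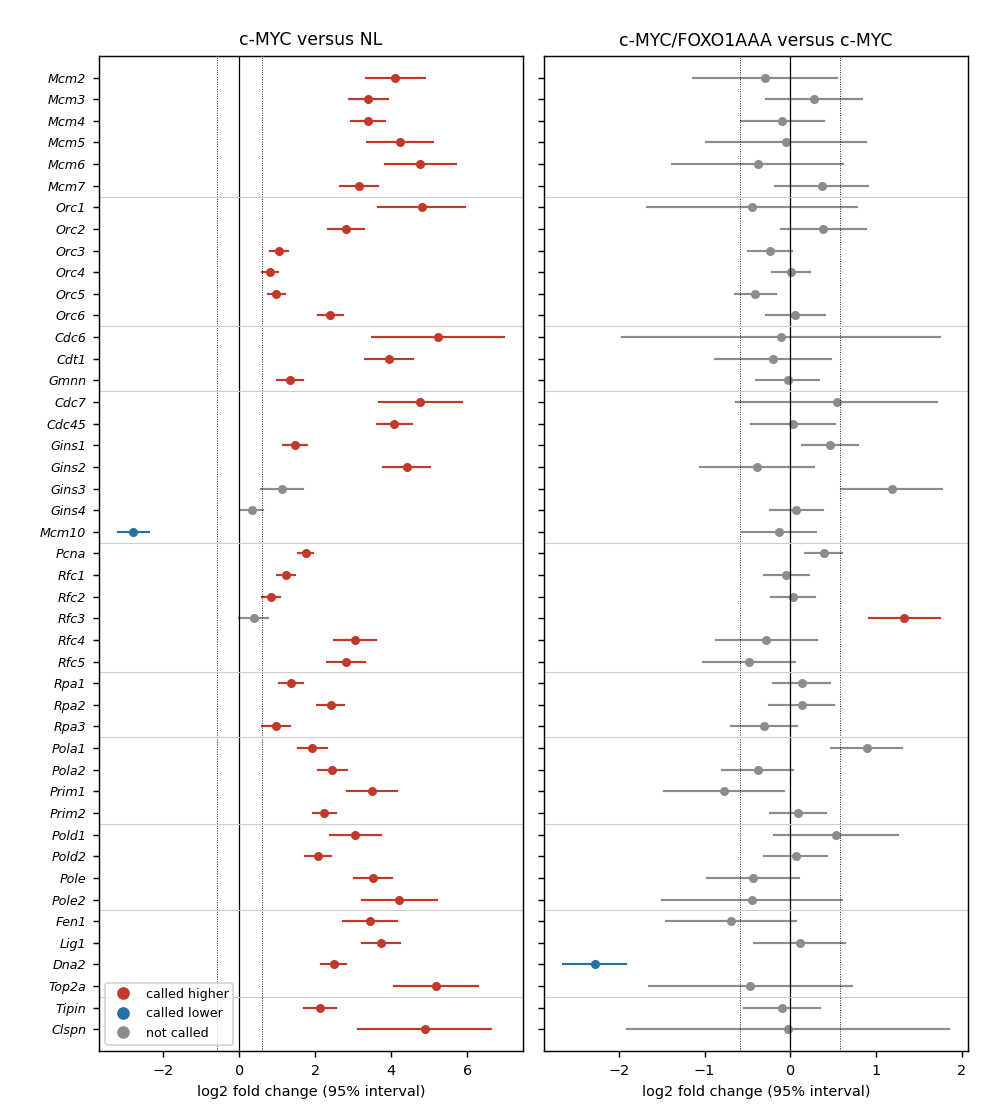
Log2 fold change of the 45 replication genes with its 95% interval, for c-MYC versus NL (left) and c-MYC/FOXO1AAA versus c-MYC (right); red is called higher, blue called lower, gray not called, and dotted lines mark 1.5-fold. On the left 41 genes are red and Mcm10 is blue, and on the right only Rfc3 is red and only Dna2 is blue; the 2 panels have different scales.

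The size of the rise differed within complexes. In c-MYC versus NL, 21 genes changed by more than 3 on the log2 scale, 9 by 2 to 3, 8 by 1 to 2 and 6 by 0 to 1. The 15 genes with an E2F word in the promoter window had a median log2 fold change of 3.74 (0.38 to 5.22), and the 21 genes with a window and no such word had one of 2.45 (-2.79 to 5.18). With and without the other words, the medians were 4.081 and 2.805 for TTTGAA (7 genes with it) and 3.615 and 2.808 for TGTTTAC (2 genes). They went the other way for CCAAT, 2.400 and 3.054 (23 genes with it), and CACGTG, 1.906 and 3.045 (6 genes). The ranges overlapped for every word, and none of these splits was tested. Apart from the prior count, ratios within a library do not depend on how libraries were scaled, and 7 were formed on the log2 scale. They carry the prior of the deposited values, which shifts ratios of genes with few reads. The ratio of Cdt1 to its inhibitor Gmnn was -1.09, -2.11, -1.33 and -2.04 in NL and 0.84, 1.14 and 0.94 in c-MYC, a difference of 2.61. The difference was 3.20 for Orc1 to the mean of Orc2 to Orc6, 3.28 for Gins2 to Gins3 and 0.99 for Pold1 to Pold2. It was -0.53 for Rfc1 to the mean of Rfc2 to Rfc5 and -6.63 for Mcm10 to the mean of Mcm2 to Mcm7. For these 6 ratios the NL and c-MYC libraries did not overlap. The exact permutation p was 0.0571, the smallest that 4 against 3 libraries can give (2-sided, 0.1 after adjustment over 21 tests). The ratio of Pole to Pole2 overlapped between the groups (difference -0.69, exact permutation p 0.286, adjusted 0.371).

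**Figure D4:**
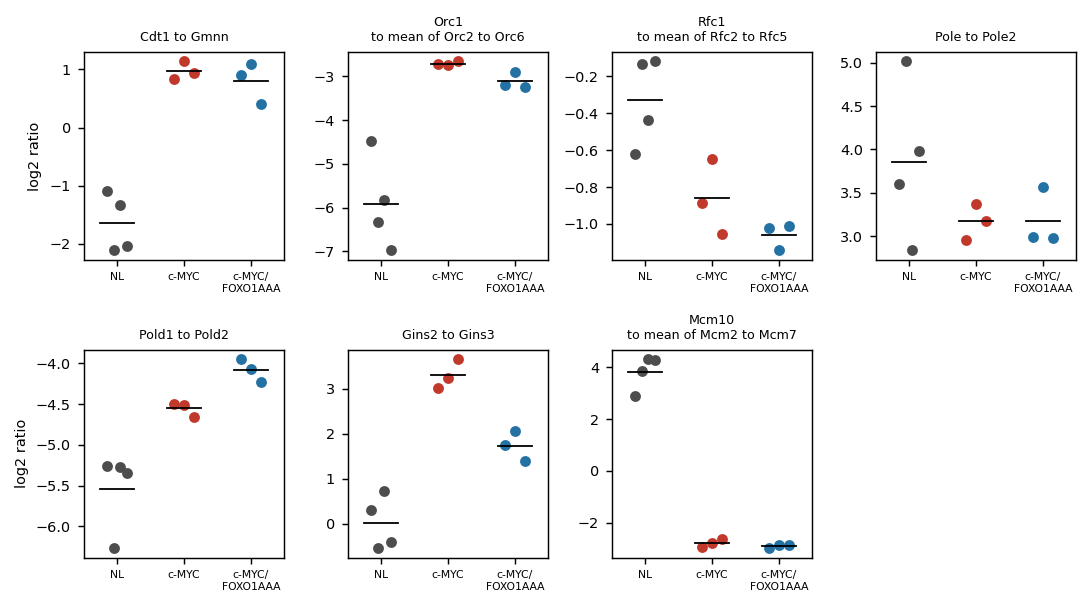
Log2 ratio of 7 pairs or sets of replication genes in each library (dots) with group means (lines); each panel has its own scale. The Cdt1 to Gmnn ratio is below 0 in all NL libraries and above 0 in all tumors, and the Gins2 to Gins3 ratio of c-MYC/FOXO1AAA, 1.39 to 2.06, lies between NL and c-MYC.

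Replication genes also differed among the NL libraries. NL 1 held the highest level of the 4 for 35 of the 45 genes, and NL 2 the lowest for 21. The median level of the 45 genes, as a share of the c-MYC mean of each gene, was 20.5% in NL 1, 15.8% in NL 3, 13.3% in NL 4 and 11.1% in NL 2. This is the order of the oncofetal markers given above. Mki67, a marker of cycling cells, lay at 7.62%, 2.74%, 2.54% and 0.744% in the same order. The part of tumor material or of cycling cells in these levels was not tested. The spread was widest for genes at low level. Among the genes with reads in all 4 NL libraries, the highest NL library exceeded the lowest 19.3-fold for Cdc6, 12.2-fold for Orc1, 7.25-fold for Cdc7 and 7.01-fold for Top2a, but 1.07-fold for Gins4, 1.11-fold for Rfc1 and 1.16-fold for Pcna.

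**Figure D5:**
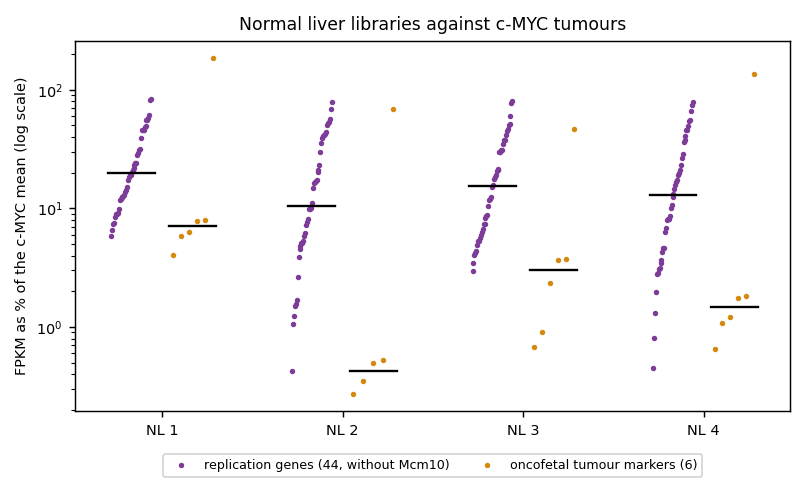
Level of each gene in the 4 NL libraries as a percentage of its c-MYC mean (log scale). Shown are 44 replication genes (without Mcm10, purple) and 6 oncofetal tumor markers (orange). Black lines are medians over all genes of a set, and genes with no reads count in them but are not drawn. The median is highest in NL 1 and lowest in NL 2 for both sets, and in every NL library the median of the replication genes lies above that of the markers, while single genes of the sets overlap.

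The second question was how adding FOXO1AAA alters the replication genes of c-MYC tumors. Few replication genes passed the test. Of the 45 genes, 1 rose (Rfc3), 1 fell (Dna2) and 43 did not pass the test in c-MYC/FOXO1AAA versus c-MYC, where 15.9% of all tested genes were called higher and 12.7% lower. The median log2 fold change was -0.05, against 0.03 for all tested genes. The libraries overlapped for 22 of the 45 genes, while 10 genes were higher and 13 lower in all c-MYC/FOXO1AAA libraries. Of all tested genes 32.7% and 30.7% were so. The 95% interval lay within 1.5-fold in either direction for 15 genes and within 2-fold for 28, so that for the other genes larger changes are not excluded by these data. The widest intervals were those of genes with few reads in NL, whose spread enters the shared estimate, such as Cdc6 (-1.96 to 1.74) and Clspn (-1.90 to 1.85).

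Dna2 (chromosome 10, 62947026 to 62974185, plus strand, GRCm38) had the largest change. It stood at 21.6, 25.2 and 21.2 FPKM in c-MYC and at 4.47, 4.04 and 5.43 in c-MYC/FOXO1AAA, which is 20.5% of the c-MYC mean. The reads were 1444, 1734 and 1422 against 402, 440 and 389. The c-MYC/FOXO1AAA libraries lay far below c-MYC and overlapped NL, where Dna2 stood at 3.33 to 4.79 FPKM. Dna2 fell by 2.28 on the log2 scale (limma adjusted p 7.8e-06, SE 0.16), and Dna2 was called lower under all 18 alternatives. Against NL the log2 fold change of c-MYC/FOXO1AAA was 0.20 (95% interval -0.14 to 0.54, limma adjusted p 1). This depends on scaling, since with the same FPKM total Dna2 was called higher than in NL (log2 fold change 1.29, limma adjusted p 0.00054). Dna2 shares no exon bases with another annotated gene.

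Rfc3 (chromosome 5, 151642756 to 151651242, minus strand, GRCm38) was the gene that rose. It stood at 7.99, 8.75 and 10 FPKM in c-MYC and at 22, 30.2 and 17.2 in c-MYC/FOXO1AAA. Every c-MYC/FOXO1AAA library exceeded every other library, although the 3 differed among themselves, with an SD of 6.6 FPKM around a mean of 23.1 (n = 3). Rfc3 rose by 1.33 on the log2 scale (limma adjusted p 0.0053, SE 0.19). The call was lost with a threshold of 2-fold (limma adjusted p 0.221). The other clamp loader genes ranged from -0.48 (Rfc5) to 0.03 (Rfc2), and none of them was called.

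Other genes differed between the tumor groups without passing the test. Gins3 was chosen for mention after its values were seen. It stood at 0.395, 0.337, 0.325 and 0.398 FPKM in NL, at 1.06, 0.864 and 0.67 in c-MYC and at 2.06, 1.66 and 2.31 in c-MYC/FOXO1AAA, from 31 to 128 reads in the tumor libraries. The 3 groups did not overlap, and the log2 fold change in c-MYC/FOXO1AAA versus c-MYC was 1.18 (limma adjusted p 0.0762, SE 0.27). Gins3 was called higher under 3 of 17 alternatives, those with the same FPKM total, with no fold-change threshold (limma adjusted p 0.00298, the lowest) and with trend and robust estimation off. Pola1 had a log2 fold change of 0.89 (95% interval 0.47 to 1.31, limma adjusted p 0.192), Prim1 of -0.77 (-1.47 to -0.08, limma adjusted p 0.646) and Fen1 of -0.70 (-1.45 to 0.06, limma adjusted p 0.813). Cdc7 and Pold1 were 0.54 higher, and neither passed the test. The 37 genes with changes of at most 0.5 lay between -0.48 and 0.46. The 6 helicase genes lay between -0.38 (Mcm6) and 0.37 (Mcm7). The ratio of Gins2 to Gins3 was 3.02, 3.24 and 3.67 in c-MYC and 1.76, 2.06 and 1.39 in c-MYC/FOXO1AAA, a difference of -1.57. The ratio of Pold1 to Pold2 differed by 0.47 and that of Orc1 to the mean of Orc2 to Orc6 by -0.41. The groups did not overlap for these 3 ratios, with an exact permutation p of 0.1, the smallest that 3 against 3 libraries can give (2-sided, adjusted 0.14).

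Markers of the tumor and of other cells differed between the tumor groups. The 6 oncofetal tumor markers summed to 18919 to 22402 FPKM in c-MYC and 6974 to 9432 in c-MYC/FOXO1AAA. Most of this sum was H19, with means of 17907 and 8134 FPKM. Afp, Igf2 and Igf2bp3 were also lower in c-MYC/FOXO1AAA. Peg10 was level (means 18 and 18.2 FPKM) and Gpc3 was higher (0.897 and 16.8). The summed level of 5 stellate cell markers was 5.14 to 15.7 FPKM in c-MYC and 91 to 121 in c-MYC/FOXO1AAA. That of 5 endothelial markers was 9.57 to 16.8 and 25.4 to 40.4, in the same order. The 3 lymphocyte markers found, of 5, summed to 2.04 to 2.35 and 8.63 to 12.9. Single genes weighed heavily in these sums. In group means, Des (stellate) went from 0.877 to 62.7 FPKM, Cdh5 (endothelial) from 4.58 to 25.9 and Cd79a (lymphocyte) from 0.136 to 9.44. The other stellate markers were also higher in group means, Col1a1 with overlapping libraries. Lrat went only from 0.0746 to 0.256 FPKM, where NL had 3.83. Lyve1 (0.238 to 0.569) and Cd3g (0.245 to 0.341) were higher in the mean, but their libraries overlapped at low levels. Lower were the endothelial genes Pecam1 (5.66 to 3.55), Kdr (1.74 to 0.971) and Stab2 (0.373 to 0.212), and the lymphocyte gene Ptprc (1.83 to 1.01). The 5 macrophage markers summed to 42.8 to 54 and 38.6 to 64.1 FPKM, and 5 biliary markers to 17.3 to 32.1 and 29.9 to 37.8, with Sox9 at 3 reads or fewer in c-MYC. Single genes of both sets went both ways between the tumor groups. Mki67 stood at 19.4 to 26.6 FPKM in c-MYC and 12.2 to 14.4 in c-MYC/FOXO1AAA. The part of these differences in the changes of Dna2 and Rfc3 was not tested.

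Against normal liver, the c-MYC/FOXO1AAA tumors gave a like picture. Of the 45 genes, 39 rose and Mcm10 fell (log2 fold change -2.92, SE 0.18, limma adjusted p 4.43e-07), where 31.2% of all tested genes were called higher and 26.6% lower. The 39 include all 11 genes that reached 1 FPKM in fewer than 3 NL libraries, Cdc7 and Cdc6 among them. Those 11 passed the filter only with tumor libraries. Mcm10 and the genes not called belong to the 34 that reached 1 FPKM in 3 or more NL libraries. The 5 genes not called were Orc3 (0.80, limma adjusted p 0.0609), Orc5 (0.56), Gins4 (0.40), Rpa3 (0.66) and Dna2. The median log2 fold change was 2.71, against 0.21 for all tested genes. Scaled to the same FPKM total, 44 genes rose and Mcm10 fell, where 58% and 15% of all tested genes were called. This comparison shares its NL libraries with the first. Cdc7 had the highest log2 fold change on the deposited scale, 5.30 (limma adjusted p 5.24e-06, SE 0.49), and Cdc6 followed with 5.11. This order turned with log2(FPKM + 1), where Mcm6 (3.93) and Top2a (3.92) led and Cdc7 had 2.94. Rfc3 and Gins3, which were not called in c-MYC versus NL, rose here by 1.71 and 2.32. With NL 2 as the only NL library, and the spread taken from the tumor groups alone, 39 genes were called higher and Mcm10 lower, where 29.3% and 22% of all tested genes were called.

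Other replication genes were taken from a list of 31 genes that assist the fork, such as further polymerase subunits, the alternative clamp loader, chromatin assembly factors and RNase H2. Of these, 30 passed the filter on low values and Chtf8 did not. In c-MYC versus NL, 25 rose, 1 fell and 4 did not pass the test, where 24.5% of all tested genes were called higher and 23.6% lower. The median log2 fold change of the 30 genes was 1.74, against 0.08 for all tested genes. The highest were those of Ticrr (5.0), which works in origin firing, Asf1b (4.83), a histone chaperone, and Chtf18 (4.13), a subunit of an alternative clamp loader. Ticrr (14, 0, 11 and 4 reads in NL) and Chtf18 were under 1 FPKM in every NL library, and Asf1b in all but NL 1. Dbf4, Recql4, Mcm8, Wdhd1, Dscc1, Atad5 and Chaf1a, also called higher, likewise reached 1 FPKM in fewer than 3 NL libraries. All of these genes passed the filter only with tumor libraries. Pold4, the small subunit of polymerase delta, fell. It stood at 13.6, 17.1, 14.2 and 15.4 FPKM in NL, at 6.05, 3.27 and 4.97 in c-MYC and at 9.9, 8.39 and 9.53 in c-MYC/FOXO1AAA. The 3 groups of Pold4 did not overlap, and the log2 fold change in c-MYC versus NL was -1.68 (limma adjusted p 0.000233, SE 0.18). Next lowest were Pole4 (-0.35), a histone-fold subunit of polymerase epsilon, and Rnaseh2c (0.19), a subunit of RNase H2, and neither passed the test. In c-MYC/FOXO1AAA versus c-MYC, limma treat called 0 of the 30 genes, where 15.9% of all tested genes were called higher and 12.7% lower, and 1 of them, Pold4 (0.98, limma adjusted p 0.108), had an unadjusted p under 0.05. In c-MYC/FOXO1AAA versus NL, 25 rose and 0 fell, where 31.2% and 26.6% of all tested genes were called.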

How the data were processed

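RNA-Seq was analyzed in 10 mouse liver libraries, grouped by their titles. The authors counted reads per Ensembl gene, added symbols and used edgeR in R, as their methods state. The submitters' processing notes name GRCm38 and FastQC 0.11.7, and the aligner and counting tool are not given in the sources used here. The authors deposited log2 FPKM that include a prior of 2 reads adjusted for library size, so genes without reads sit at a floor. Of 17069 entries, 372 hold no symbol or value and were left out. Because the values follow from whole reads, gene length and library size, reads were recovered at the length that gave whole reads in all libraries (tolerance 0.001), which was unique for 16691 of 16697 genes (99.96%). FPKM printed here are these reads without the prior. Effective library size divided by reads was 0.666 to 0.708 in NL, 1.27 to 1.31 in c-MYC and 1.47 to 1.52 in c-MYC/FOXO1AAA. For 44 of the 45 genes the length used equals that of an annotated transcript, and for 7 it is under 50% of the longest one, so levels are compared within a gene. Of the 45 genes, 17 share exon bases with another gene, 13 of them with one on the opposite strand. These 13 are Mcm7, Orc1, Orc2, Orc4, Orc6, Cdc45, Gins2, Rfc2, Rfc4, Rfc5, Pole, Fen1 and Lig1.

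The deposited log2 values were tested with limma 3.58.1 (R 4.3.3, statmod 1.5.0), since they are not counts. Kept were 14017 genes that reached 1 FPKM in 3 or more libraries. All 10 libraries entered the model with 1 mean for each group, and treat (2-sided, fold change over 1.5) was run with trend and robust estimation and Benjamini-Hochberg adjustment over all tested genes (called under 0.05). Scripts were tested on simulated data. Values by library are printed for genes called when FOXO1AAA was added and, in each role, the genes with the highest and lowest signed log2 fold change in c-MYC versus NL. Of the other replication genes, the 3 highest and 3 lowest were named. Positions are those of GENCODE M21 (GRCm38). The genes and lists were chosen with earlier results of these data known. Alternatives were other pseudocounts, filters, scalings and thresholds, the variance model, the replicate block, single libraries left out and NL 2 alone.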

Additional observations from a re-analysis of the deposited data

Results flagged for a closer look

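In the 4 NL libraries, the level of each of the 45 replication genes was checked for a library far from the other 3 with Dixon's test. Mcm2 stood apart in NL 1 at 5.37 FPKM, against 1.73 to 2.08 in the other NL libraries. Rfc1 stood apart in NL 1 at 7.05 FPKM, against 6.32 to 6.4. These are 2 of 45 tests, where chance gives about 2.25, and both concern NL 1, the NL library with the highest oncofetal marker levels. The groups of 3 tumors were not tested.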

How the results depend on the processing

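The prior count, filter, scaling, threshold, variance model and libraries were changed singly. Genes called higher in c-MYC versus NL ranged from 33 (mean FPKM of at least 5, 36 genes tested) and 34 (threshold of 2-fold) to 44 (same FPKM total). Of all tested genes, 25.9%, 15.6% and 50.4% were called higher, in the same order. Mcm10 was the 1 called lower throughout, where 13.5% to 35.3% of all tested genes were called lower. In c-MYC/FOXO1AAA versus c-MYC the number called higher was 2 with the same FPKM total (Rfc3 and Gins3), 5 with no fold-change threshold, 0 with a threshold of 2-fold and 2 with trend and robust estimation off (Rfc3 and Gins3). Of all tested genes, 18.5%, 28.4%, 11.5% and 16.1% were called higher there, in the same order. The number called lower there was 2 with no fold-change threshold (Dna2 and Orc5) and 1 in all other alternatives run. Of all tested genes, 26.4% were called lower with no fold-change threshold and 7.86% to 14.9% in the others. Dna2 in c-MYC/FOXO1AAA versus NL reversed to -0.085 with quantile normalization, and the cause was not tested. Leaving out single libraries gave 38 to 40 genes higher in c-MYC versus NL, 37 to 39 in c-MYC/FOXO1AAA versus NL, and 1 higher and 1 lower between the tumor groups. Of all tested genes, 23% to 25%, 29.5% to 31.9% and 14.6% to 15.5% were called higher, in the same order. Between the tumor groups 11% to 13.2% were called lower. The same FPKM total shifts the median of all genes to 1.01 in c-MYC versus NL, to 0.20 between the tumor groups and to 1.31 in c-MYC/FOXO1AAA versus NL. The replicate block gave 40 higher and 1 lower in c-MYC versus NL, 1 and 1 between the tumor groups, and 38 and 1 in c-MYC/FOXO1AAA versus NL. Of all tested genes, 23.2% and 22.5%, 15.5% and 12%, and 30% and 25.7% were so called, in the same order. Libraries of the same number did not deviate together (correlations -0.0398 to 0.0272). Such correlations cannot show whether the samples were paired in the experiment. Ratios moved beyond the spread of replicates in 8 cases, all with log2(FPKM + 1), where the c-MYC versus NL difference was 0.82 for the Orc1 ratio and 0.70, of opposite sign, for the Pole to Pole2 ratio. Few reads in NL limit the folds of Cdc6, Orc1, Cdc7, Clspn, Pole2 and Fen1.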
